A study of Mus musculus with 4 samples.

Results

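The 6 genes Wt1, Bcl11a, Vrtn, Rxrg, Sema6a and Kcnj3 are developmental and neuronal genes of the mouse that read lower in embryoid bodies treated with GSK-J4 than in the 3 controls. They are 6 of 22180 genes with a value on the arrays, and they were chosen from these same arrays because they lay among the lowest in GSK-J4, so their differences from the controls are a description of the choice and carry no test. Every probe set that the platform annotation gives to 1 of these symbols was taken, 8 in all, and for a gene with several the brightest on average stands for the gene. The embryoid bodies, cell clusters that form in suspension as stem cells start to differentiate, came from the R1 mouse embryonic stem cell line. Feeder-depleted cells were held in bacteriological dishes for 18 h with LIF, a cytokine that holds stem cells back from differentiation, withdrawn. They received 1.88 µM GSK-J4, labelled as a KDM6 inhibitor, 1.88 µM GSK-J5, the control compound, DMSO, or EB medium alone. All 4 treatments share the cell line, the withdrawal of LIF and the time, and each has 1 array, so no spread between replicates exists and no difference below has a replicate check.

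KDM6 enzymes remove a repressive methyl mark that the Polycomb complex PRC2 places on histone H3, and many developmental regulators carry that mark in embryonic stem cells. Wt1 encodes a zinc finger transcription factor needed for kidney and gonad development. Bcl11a encodes a zinc finger protein known for silencing fetal globin genes and as a subunit of the BAF remodelling complex, and Vrtn encodes vertnin, which pig genetics has linked to the number of vertebrae. Rxrg encodes a retinoid X receptor, a nuclear receptor that pairs with other nuclear receptors. Sema6a encodes a transmembrane semaphorin that guides axons through plexin receptors, and Kcnj3 encodes a subunit of G protein-gated potassium channels.

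The values are log2 RMA values, in which 1 unit is a 2-fold difference. Among the transcriptional regulators, Wt1 read 7.67 in GSK-J4, against 8.63 in GSK-J5, 8.75 in DMSO and 8.88 in EB medium. Its level in GSK-J4 lay below all 3 controls, which did not reach down to it, and was 1.95-fold under the nearest of them, GSK-J5. In bulk samples such as these, fewer cells of a type and less RNA per cell cannot be told apart. For Bcl11a the brighter probe set gave 7.05 in GSK-J4, against 8.14, 8.28 and 8.26 in GSK-J5, DMSO and EB medium. This is 2.13-fold under the nearest control, while the 3 controls themselves lay within 0.14. A second, dimmer Bcl11a probe set showed nothing of the kind, with 5.29 in GSK-J4, against 5.21 in GSK-J5, 5.39 in DMSO and 5.23 in EB medium. The 2 Bcl11a probe sets therefore disagree, and the dim one was not shown to be above background. With the median of both, GSK-J4 differed from the nearest control by -0.50 on the log2 scale, short of 1.5-fold.

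Vrtn had the widest gap of the 6 genes, with 7.03 in GSK-J4, against 8.21 in GSK-J5, 8.27 in DMSO and 8.39 in EB medium. The nearest control was 2.27-fold higher, so the Vrtn signal in GSK-J4 was 44.1% of that in GSK-J5. The retinoid receptor gene Rxrg gave 8.0 in GSK-J4, against 9.08, 9.17 and 9.36 in GSK-J5, DMSO and EB medium. It lay 2.11-fold below GSK-J5 and 2.57-fold below EB medium, the highest of its controls.

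Both membrane protein genes showed the same order of size. Sema6a read 7.77 in GSK-J4, against 8.79 in GSK-J5, 8.73 in DMSO and 8.86 in EB medium. Here DMSO was the nearest control, 1.95-fold higher, and the controls spanned 0.13, the narrowest range of the 6 genes. The brighter Kcnj3 probe set gave 7.99 in GSK-J4, against 9.01, 9.32 and 9.27 in GSK-J5, DMSO and EB medium. Its controls were the most spread, over 0.31, and GSK-J4 lay 2.03-fold below GSK-J5 and 2.51-fold below DMSO. The other Kcnj3 probe set went the same way by less, with 5.26 in GSK-J4, against 5.73 in GSK-J5, 6.01 in DMSO and 5.93 in EB medium. All 4 of its values lay under the filter level of 6.59 introduced next, so its gap of 1.39-fold is not exact.

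**Figure D1:**
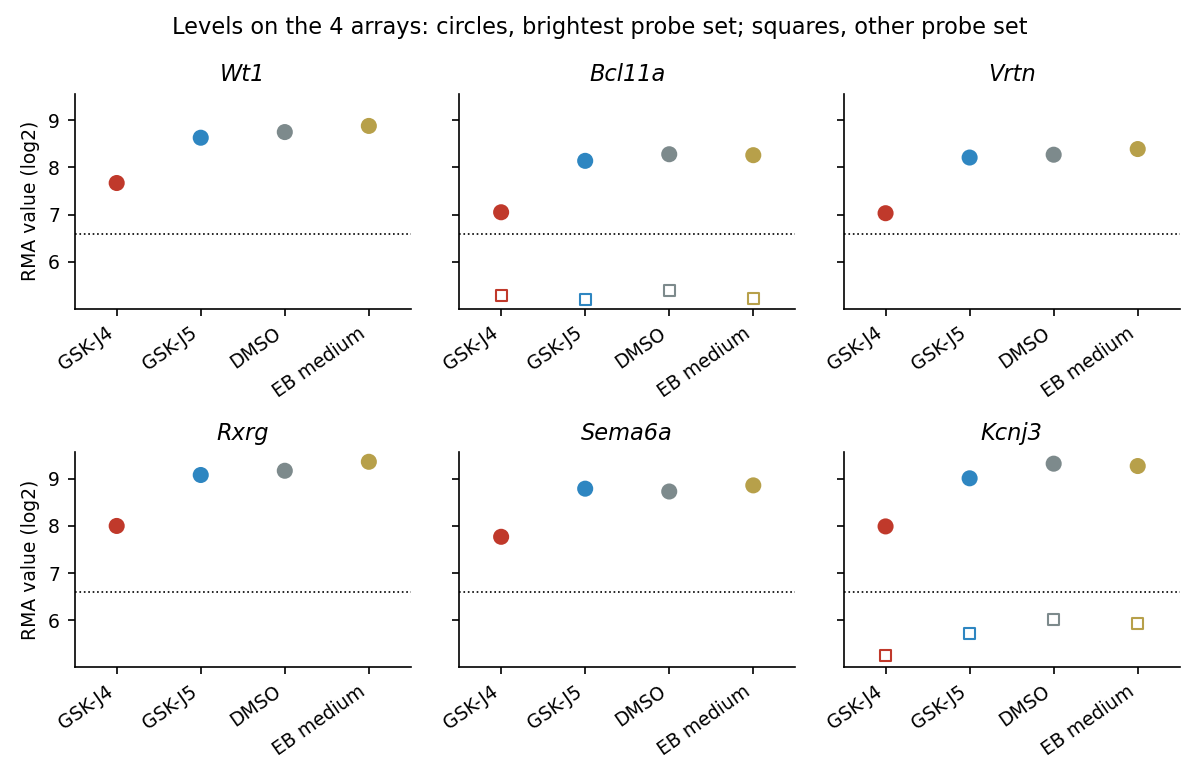
RMA values (log2, vertical axis) of the 6 genes on the GSK-J4, GSK-J5, DMSO and EB medium arrays, 1 array each; circles are the brightest probe set, open squares the other probe set of Bcl11a and Kcnj3, and the dotted line is the filter level of 6.59. Every GSK-J4 circle lies between 7.03 and 8.0, below all 3 controls of its gene, while the dim Bcl11a squares do not separate GSK-J4 from the controls.

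Genes were counted above a filter level of 6.59 on average, set at the 40th percentile of all genes. This kept 13308 genes, all 6 members among them. It counted as lower in GSK-J4 when it lay at least 1.5-fold (0.585 on the log2 scale) below the lowest of the 3 controls, and this distance is called the margin. By that rule all 6 members were lower, as were 0.842% of the genes counted (112 of 13308), and since the members were chosen on this contrast nothing is read from their count. Their margins ran from -1.18 for Vrtn to -0.96 for Wt1 and Sema6a. At 2-fold 4 of the 6 were lower, against 0.105% of genes; Wt1 and Sema6a, just short of 2-fold, were the members left out. Ranked by margin the members stood at places 8 (Vrtn), 10 (Bcl11a), 11 (Rxrg), 12 (Kcnj3), 17 (Sema6a) and 18 (Wt1) from the bottom. The margin was 3.3 times the range of the 3 controls for Kcnj3 and 7.8 times for Bcl11a, with the others between. For both genes this is the brighter probe set. That range is over single arrays of 3 treatments and is no replicate spread. With the members chosen on this contrast, nothing is read from these ratios.

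**Figure D2:**
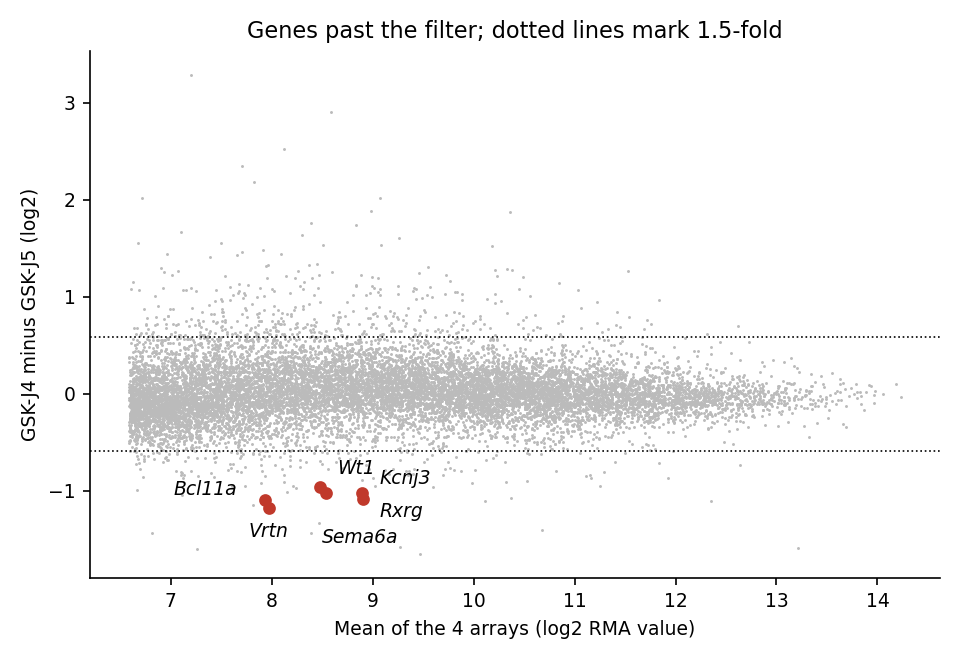
GSK-J4 minus GSK-J5 (log2, vertical axis) against the mean of the 4 arrays (log2 RMA value, horizontal axis) for the 13308 genes counted; each point is 1 gene, red points are the 6 members and dotted lines mark 1.5-fold. The members have means of 7.93 to 8.90, with Bcl11a and Vrtn under the 60th percentile of all genes (8.08). Their differences from GSK-J5 are -1.18 to -0.96.

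GSK-J4 and GSK-J5 were given at the same dose and time, and the difference between them was -1.05 at the median of the 6 genes, beside 0.00 at the median of all genes counted. It was -1.18 for Vrtn, -1.09 for Bcl11a and -1.08 for Rxrg. For Sema6a and Kcnj3 it was -1.02 each, and for Wt1 -0.96. All 6 were thus at least 1.5-fold lower than in GSK-J5, as were 1.39% of genes. Against DMSO the members differed by -0.96 (Sema6a) to -1.33 (Kcnj3), and all 6 were 1.5-fold lower, beside 1.57% of genes. Against EB medium they differed by -1.09 (Sema6a) to -1.36 (Vrtn and Rxrg), and again 6 of 6 were 1.5-fold lower, beside 1.68% of genes. These 3 comparisons share the GSK-J4 array.

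The controls differed from each other by much less. Between GSK-J5 and DMSO 0 of the 6 genes differed by 1.5-fold in either direction, as did 0.173% of all genes, and the differences ran from -0.31 to 0.06. Kcnj3 had the most negative difference, and 1.65% of genes were as low or lower. Bcl11a followed at -0.14, Wt1 at -0.12, Rxrg at -0.09 and Vrtn at -0.06, while Sema6a lay at 0.06. For these the share of genes as low or lower ran from 11.2% for Bcl11a to 68.9% for Sema6a. Against EB medium, GSK-J5 was lower for all 6 genes by small amounts, from -0.07 for Sema6a to -0.28 for Rxrg. The median of all genes counted was -0.01 here, so being lower by any amount was common. Again 0 of 6 reached 1.5-fold, beside 0.188% of genes. The share of genes as low or lower was 2.46% for Rxrg, 2.99% for Kcnj3 and 3.43% for Wt1. It was 7.71% for Vrtn, 16.2% for Bcl11a and 28.6% for Sema6a. GSK-J5 was the lowest control for 5 of the 6 genes, as it was for 30.1% of all genes, and DMSO for Sema6a. DMSO and EB medium differed by -0.19 (Rxrg) to 0.05 (Kcnj3), with 0 of 6 at 1.5-fold beside 0.158% of genes. The comparisons of GSK-J4 and of the controls use the same control arrays, so their values for a gene are not independent of each other.

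**Figure D3:**
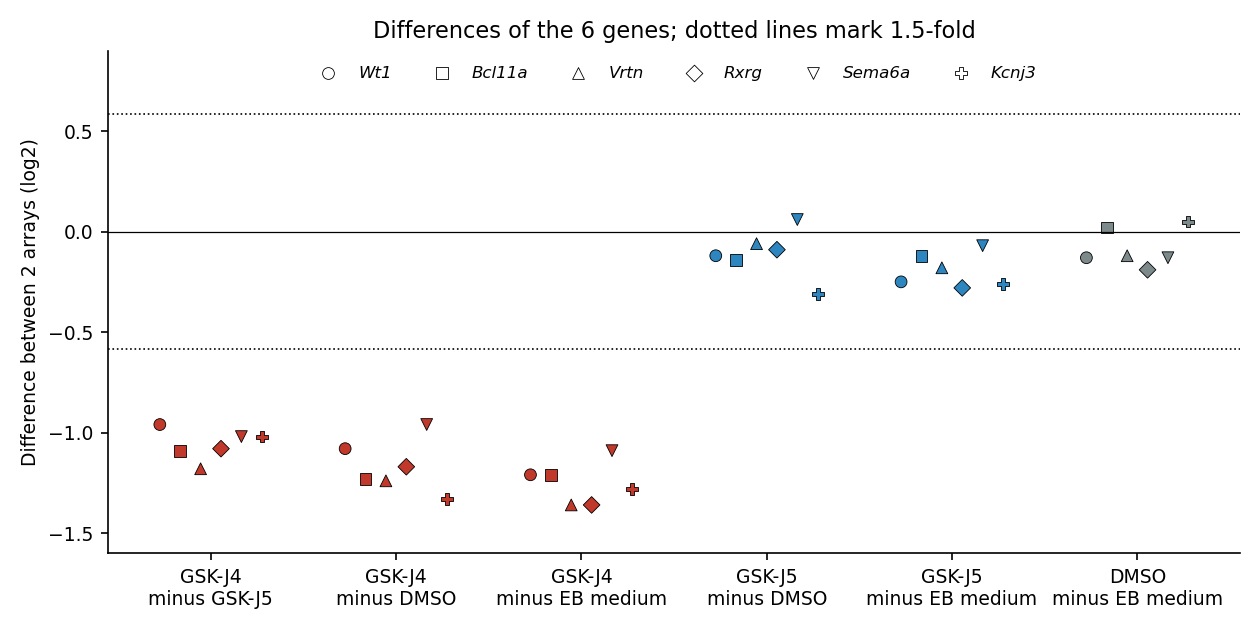
Differences between pairs of arrays (log2, vertical axis) for the 6 genes, 1 symbol a gene; red are GSK-J4 minus each control, blue GSK-J5 minus DMSO or EB medium, grey DMSO minus EB medium, and dotted lines mark 1.5-fold. All red symbols lie at -0.96 or below, and the blue and grey ones between -0.31 and 0.06.

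The start regions of the genes were set side by side as a description. The members were lower together because they were chosen so, and no shared regulation is read from these regions. RefSeq promoter windows (GRCm38.p6, 250 bases before to 50 after a start) were found for 4 of the 6 genes, with 3 windows for Vrtn, 2 for Rxrg and 1 each for Bcl11a and Kcnj3; none was used for Wt1 or Sema6a. The first window of each is printed 5′ to 3′ to let the CpG-rich Bcl11a start be set beside the others. Capitals mark matches on either strand to the GC box GGGCGG, to the CCAAT box and to the nuclear receptor half-site AGGTCA, so a match on the reverse strand appears as the reverse complement. The windows are chr11:24080445-24080744 for Bcl11a, chr12:84640769-84641068 for Vrtn, chr1:167598112-167598411 for Rxrg and chr2:55435720-55436019 for Kcnj3, each on the plus strand.
Bcl11a: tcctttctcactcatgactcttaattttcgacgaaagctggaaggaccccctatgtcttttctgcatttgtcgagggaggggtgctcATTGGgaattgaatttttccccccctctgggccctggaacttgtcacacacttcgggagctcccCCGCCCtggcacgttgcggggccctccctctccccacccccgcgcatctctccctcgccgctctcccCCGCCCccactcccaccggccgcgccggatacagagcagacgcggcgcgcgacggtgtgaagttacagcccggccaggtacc
Vrtn: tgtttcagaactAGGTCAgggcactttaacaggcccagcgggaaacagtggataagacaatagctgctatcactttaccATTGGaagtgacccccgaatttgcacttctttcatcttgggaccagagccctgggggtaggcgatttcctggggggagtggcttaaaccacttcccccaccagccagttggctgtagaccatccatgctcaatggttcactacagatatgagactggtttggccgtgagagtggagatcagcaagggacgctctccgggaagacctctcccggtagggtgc
Rxrg: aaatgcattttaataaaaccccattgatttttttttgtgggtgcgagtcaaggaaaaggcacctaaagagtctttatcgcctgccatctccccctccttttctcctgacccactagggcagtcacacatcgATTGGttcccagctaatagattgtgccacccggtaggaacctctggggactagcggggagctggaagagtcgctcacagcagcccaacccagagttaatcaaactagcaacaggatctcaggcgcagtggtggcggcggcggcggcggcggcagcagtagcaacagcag
Kcnj3: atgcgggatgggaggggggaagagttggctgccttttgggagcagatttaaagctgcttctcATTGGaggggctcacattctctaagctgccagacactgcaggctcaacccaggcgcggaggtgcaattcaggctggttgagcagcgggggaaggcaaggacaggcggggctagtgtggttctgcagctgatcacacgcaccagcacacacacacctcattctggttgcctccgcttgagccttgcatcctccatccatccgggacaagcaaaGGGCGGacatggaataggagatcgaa

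The 4 printed windows differed in base composition. CpG content was expressed as the observed number of CG pairs over that expected from the C and G counts, for which the median of all 32841 windows was 0.38 and 36.1% of windows reached 0.60. Bcl11a had 23 CG pairs, a ratio of 0.81 and 63.0% G and C. The first Rxrg window reached 0.60 with 13 CG pairs, its second 0.37. Kcnj3 (0.41) and the Vrtn windows (0.33, 0.44 and 0.54) lay nearer the median. A CCAAT match stood in 5 of the 7 windows of these genes, beside 37.4% of all windows. The 4 printed windows were among the 5, each with the match on the reverse strand. In the printed windows it began 163 bases before the start in Bcl11a, 171 in Vrtn, 119 in Rxrg and 188 in Kcnj3. A GC box stood in the windows of Bcl11a (2 matches) and Kcnj3 (1 match, after the start), beside 35.7% of all windows. The half-site AGGTCA stood in the first Vrtn window and the second Rxrg window, beside 16.3% of all windows. Neither the TATA box TATAAA (13.6% of all windows) nor the TCF/LEF core CTTTGA (16.0%) had a match in any of the 7 windows on either strand. No searched motif overlapped another in the printed windows, and a match is not a binding site.

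**Figure D4:**
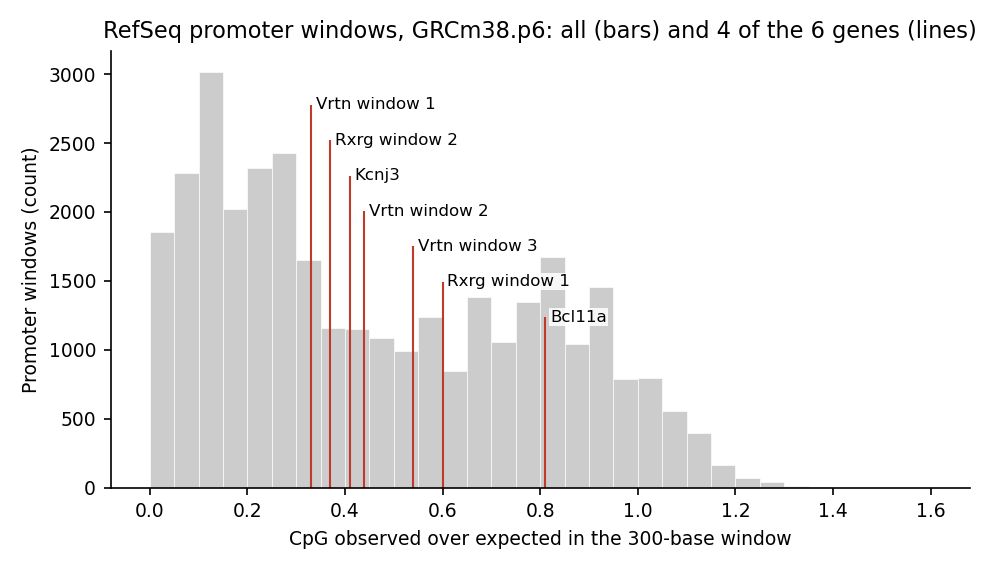
Number of RefSeq promoter windows (vertical axis) by their CpG observed over expected ratio (horizontal axis, no unit); bars are all 32841 windows and red lines the 7 windows of Bcl11a, Vrtn, Rxrg and Kcnj3, with line height only for legibility. Bcl11a, at 0.81, lies in the CpG-rich part, and the other windows between 0.33 and 0.60.

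The genes beside the members on the chromosome were described in the same way. The 2 nearest measured genes on each side of every member, in RefSeq order, made 24 neighbours, of which 14 passed the filter. By the 1.5-fold rule 0 of these 14 were lower and 0 higher, beside 0.842% and 2.21% of all genes, so a count of 0 among 14 is near the background. Their margins were -0.26 to 0.18, with 6 below all controls and 4 above by any amount, beside 35.5% and 38.0% of all genes. Wt1os, the antisense RNA gene beside Wt1, gave 6.08 in GSK-J4, against 6.29 in GSK-J5, 6.18 in DMSO and 6.46 in EB medium. These values lay under the filter level, and their gap to the nearest control was -0.10. Rcn1, which encodes a calcium-binding protein of the endoplasmic reticulum and lies on the other side of Wt1, had the largest gap of those that passed, with 9.43 in GSK-J4, against 9.69, 9.89 and 9.83 in GSK-J5, DMSO and EB medium. The dim gene Lmx1a beside Rxrg, a LIM homeobox gene, had a margin of -0.35.

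**Figure D5:**
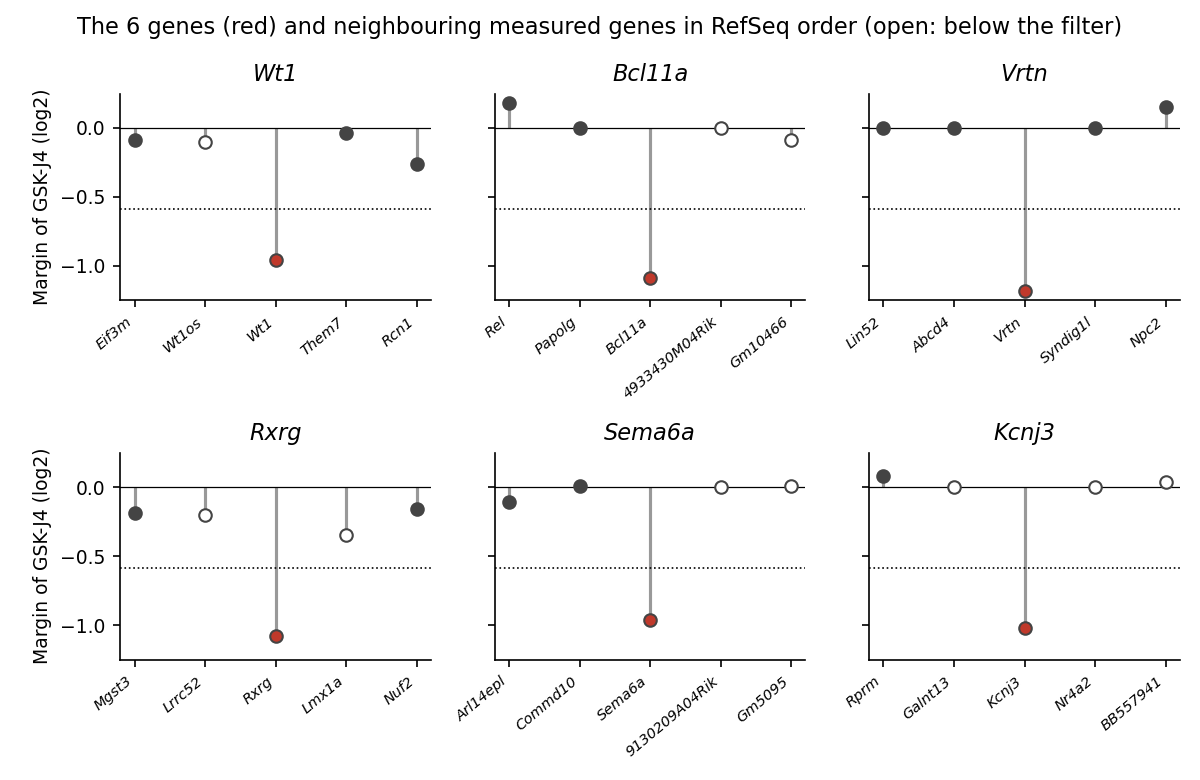
Margin of GSK-J4 to the nearest control (log2, vertical axis; 0 where GSK-J4 lay within the controls) for each member (red) and the 2 measured genes on either side in RefSeq order (dark, passing the filter; open, below it); the dotted line marks 1.5-fold. The members lie at -0.96 to -1.18, and the neighbours that passed lie at -0.26 to 0.18.

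Close relatives of the members did not reach the 1.5-fold rule, although the channel subunits went the same way. Kcnj9, which encodes another subunit of the G protein-gated channels, gave 6.65 in GSK-J4, against 7.27 in GSK-J5, 7.30 in DMSO and 7.03 in EB medium, a margin of -0.38. Kcnj5 and Kcnj6, further subunits of that channel, had margins of -0.32 and -0.36, and both were under the filter level on average. Sema6c lay at 7.44 in GSK-J4, against 7.91, 7.82 and 7.93 in GSK-J5, DMSO and EB medium. Its margin was -0.38, that of the dim Sema6d -0.18, and Sema6b lay within its controls. The other retinoid X receptors were not lower: Rxra read 8.44 in GSK-J4, against 8.24, 8.17 and 8.29, and Rxrb 9.87 against 9.81, 9.78 and 9.90 in GSK-J5, DMSO and EB medium. Bcl11b, the paralogue of Bcl11a, had a margin of -0.07. The margins of these 9 relatives kept their sign, or stayed within the controls, when the arrays were rescaled by median centring, quantile normalization or loess.

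The pathways around the members were described by lists. Of all genes counted, 35.5% lay below all 3 controls in GSK-J4 by any amount and 38.0% above. By the 1.5-fold rule 0.842% were lower and 2.21% were higher, with 0 of the 6 members among the higher ones. These shares are the background for every list and marker count below, and a count of 0 in a short list is near them. Of 25 WT1-related genes that passed the filter (34 listed), 0 were lower and 0 higher by 1.5-fold, 17 lay below all controls and 3 above, and the median difference from GSK-J5 was -0.22. Among them Lhx1, a LIM homeobox factor of kidney and head development, gave 6.42 in GSK-J4, against 7.02, 7.16 and 6.85 in GSK-J5, DMSO and EB medium. Egr3, an EGR zinc finger factor, differed from GSK-J5 by -0.50 but had a margin of only -0.11. Of the 6 WT1-binding proteins, 5 lay below all controls and 0 above. The list median was -0.20 to -0.23 under the 3 rescalings.

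Of 32 counted semaphorin pathway genes (38 listed) 0 were lower and 0 higher, 15 lay below all controls and 10 above, with a median of -0.14. Of 9 counted receptors, 2 lay below all controls and 5 above, and of 7 counted signalling proteins 6 lay below and 0 above. Among the plexin receptors of Sema6a, Plxna2 had a margin of 0.12 and Plxna4 one of -0.35. Sema4c, a class 4 semaphorin, had a margin of -0.49, while the plexin receptor gene Plxnb2 gave 10.65 in GSK-J4, against 10.08, 9.87 and 10.16 in GSK-J5, DMSO and EB medium. The 13 counted genes of the channel list (26 listed) held 0 lower and 0 higher, with a median of -0.09. Kcnj4, an inward rectifier of another class, had a margin of 0.27.

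In the retinoid list 0 of 19 counted genes (33 listed) were lower or higher, beside 0.842% and 2.21% of all genes, and the median was -0.02. Ppard, a nuclear receptor that pairs with retinoid X receptors, gave 10.45 in GSK-J4, against 9.91, 9.73 and 9.90 in GSK-J5, DMSO and EB medium. Ncoa1, a nuclear receptor coactivator, had a margin of 0.43. Among 36 BCL11A partner genes (44 listed) 0 were lower or higher, and the median was 0.00, or -0.02 after quantile normalization. Among its counted genes the largest differences from GSK-J5 were those of the BAF subunit genes Phf10 (0.49) and Bcl7b (0.35). Of 23 somite segmentation genes (31 listed) 0 were lower or higher and the median was -0.06. Lfng, a glycosyltransferase that modifies Notch, had a margin of -0.43, and Hey2, a Notch target, 0.40. The KDM6 genes had a median of 0.15, with 3 of 3 above all controls and 0 higher by 1.5-fold. Under median centring 2 of 3 lay above. Kdm6a read 12.08 in GSK-J4, against 12.03, 12.07 and 12.07 in GSK-J5, DMSO and EB medium, and the margin was 0.07 for Uty. Kdm6b had a margin of 0.38. Its other probe set gave 0.02, but read only 6.27 to 6.32 on the 4 arrays, under the filter level.

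Markers of the cell types that embryoid bodies can hold were set beside the members. The 10 pluripotency markers gave a summed level of 15.41 (log2) in GSK-J4, against values of 15.44 to 15.45 over the controls, and none was lower or higher by 1.5-fold. All 10 passed the filter, 4 below all controls and 4 above, beside 35.5% and 38.0% of all genes. Sox2, a core pluripotency factor, read 13.02 in GSK-J4, against 13.02, 13.02 and 12.93 in GSK-J5, DMSO and EB medium. Dppa3 had a margin of -0.48 and Klf4 one of 0.25.

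Of 9 measured mesoderm and primitive streak markers, 6 passed the filter and Eomes, a T-box factor, was the only one lower, at 7.51 in GSK-J4, against 8.24, 8.11 and 8.26 in GSK-J5, DMSO and EB medium. Of the 6, 5 lay below all controls and 0 above, beside 35.5% and 38.0% of all genes. Hand1, a factor of heart and trophoblast, had a margin of -0.10. The streak marker T, also listed, had no value here. Sums take every measured marker of a list, those under the filter level included. They add unlogged levels, so the brightest marker weighs most. The summed level of the 9 mesoderm and streak markers was 10.06 in GSK-J4 and 10.24 to 10.30 in the controls. Eomes was the brightest of them. For 9 measured neuroectoderm markers the sum was 11.57 in GSK-J4 and 11.69 to 11.74 in the controls. The brightest of these, the tubulin gene Tubb3, read 10.76 in GSK-J4, against 10.92, 10.85 and 10.92 in GSK-J5, DMSO and EB medium. Sox1, an early neural factor, had a margin of -0.42, and Nes, an intermediate filament of neural progenitors, -0.19. They were the farthest from GSK-J5 among the neuroectoderm markers that passed, for which the median difference from GSK-J5 was only -0.03. Of the 7 that passed, 5 lay below all controls and 0 above, beside 35.5% and 38.0% of all genes. By 1.5-fold 0 of them were lower, beside 0.842% of all genes. Primitive endoderm markers summed to 10.11 in GSK-J4 and 10.15 to 10.19 in the controls, trophoblast markers to 11.22, against 11.19 to 11.25, and feeder fibroblast markers to 13.69, against 13.60 to 13.63. The fibroblast sum was carried by Fn1, a fibronectin gene with 13.18 in GSK-J4 and 13.00 to 13.05 in the controls, while the median difference of that list from GSK-J5 was -0.25 over the 7 that passed. In these 3 lists 0 genes were lower or higher by 1.5-fold, beside 0.842% and 2.21% of all genes. Among genes of these lists that passed the filter, the farthest from GSK-J5 were Foxa2 and Afp, Krt7 and Gata3, and Thbs1 and Col1a2. Their margins were -0.05 and -0.14, -0.46 and -0.36, and -0.40 and -0.21, in that order. Below all controls lay 2 of 4 endoderm, 3 of 6 trophoblast and 5 of 7 fibroblast markers that passed, beside 35.5% of all genes. Above all controls lay 2, 1 and 1 of them, beside 38.0%. No marker is listed at 0, since RMA gives every probe set a value. The part of the mesoderm, neuroectoderm and other markers in the values of the 6 genes was not tested.

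Likeness between genes was measured as the Euclidean distance over the 4 arrays, in log2 units, after each gene was centred on the mean of its controls. The members were chosen for a low GSK-J4 value, which enters this distance, so that they lie close to each other, and that their nearest genes are also low in GSK-J4, follows from the choice. The closest pair was Vrtn and Rxrg at 0.092, and the farthest Sema6a and Kcnj3 at 0.321. Among all 13308 genes, the nearest to Wt1 were Fndc3c1 (0.049), the transcriptional repressor gene Hes3 (0.066) and Lrrn4 (0.105). Hes3 and the histone H2A gene H2ac1 were nearest to Bcl11a (0.121 and 0.124), followed by Vrtn. The nearest to Vrtn were Rxrg, Bcl11a and Ms4a14 (0.138), and Ms4a14 (0.068), Vrtn and Wt1 were the nearest to Rxrg. Around Sema6a lay the lactate exporter gene Slc16a3 (0.050), the growth factor gene Fgf15 (0.071) and Lrrn4 (0.079). Kcnj3 was nearest to the neurofilament gene Nefl (0.130), Bcl11a (0.133) and Ms4a14 (0.147).

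The order of the controls was also set beside that of the members, although gaps between controls were small and have no replicate check. The control values enter the distance too, so a like order in the nearest genes follows from how these were picked. Nothing is read from it. Fndc3c1 gave 7.33 in GSK-J4, against 8.24, 8.42 and 8.51 in GSK-J5, DMSO and EB medium. Slc16a3 gave 9.56 in GSK-J4, against 10.63, 10.57 and 10.70, so that DMSO was its lowest control as it was for Sema6a. Nefl, at 8.08 in GSK-J4, against 8.97, 9.26 and 9.28, had GSK-J5 well under the other controls, as Kcnj3 had. The DMSO and EB medium values of Nefl were nearly equal, so their order is not read. Lrrn4, near to Sema6a, gave 6.97 in GSK-J4, against 7.92, 7.93 and 8.10 in GSK-J5, DMSO and EB medium. Its GSK-J5 and DMSO values were nearly equal, so which was lowest is not read. Hes3 had 5.86 in GSK-J4 and 6.85 to 7.01 in the controls, and since 5.86 is below the filter level the gap is not exact. A second probe set of Fgf15 had a margin of -0.38, against -0.90 for the brighter one. Likeness over 4 arrays rests on 4 values a gene.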

How the data were processed

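Labelled material made from 100 ng of total RNA per treatment was hybridised, 1 Affymetrix array for each of 4 treatments. The deposited values, taken here as log2, were made by the authors with RMA, per the submitters' processing notes. Their software was Expression Console, version 1.2.1.20. That the scale is log2 was taken from the range of the values, 2.20 to 14.48, since no log base is given in the sources used here. RMA brings arrays to a common distribution (array medians 6.63 to 6.65), so a global change in RNA would not show. Scanner files were not used here, so detection above background was not examined. Precision is limited by there being 4 arrays. The platform annotation, which can be old, gave 1 symbol to 23521 of 41345 probe sets, several to 1814, and did not list 16010.

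With 1 array a treatment no test was run; genes are described by rules of size (1.5-fold and 2-fold). Members and lists were chosen with earlier results of these data known. Named genes are the members, their paralogues, the KDM6 genes, the 2 genes of each list farthest from GSK-J5 in the filtered set, listed genes past 1.5-fold, and the 3 nearest patterns of each member. Neighbouring genes, motifs and the promoter comparison were added after the values were seen, as were Plxna2, Plxna4, Wt1os, Rcn1, Lmx1a, Sox2, Tubb3 and Fn1 as examples. Python 3.11.15, pandas 2.3.3 and statsmodels 0.14.6 were used.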

Additional observations from a re-analysis of the deposited data

How the results depend on the processing

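All 6 genes stayed 1.5-fold below the 3 controls under median centring, repeated quantile normalization, loess, no filter and with each control array left out. Taking the median of all probe sets of a gene, 5 did, since the 2 Bcl11a probe sets disagree and its margin became -0.50; Kcnj3 became -0.74. A filter at the 60th percentile (8.08) removed Bcl11a and Vrtn and left 4. The count of all genes below the controls was 14 at 2-fold, against 112 at 1.5-fold. The median difference of the members from GSK-J5, -1.05, was -1.20 with DMSO as reference, -1.25 with EB medium and -1.19 with the mean of the controls, and -0.99 to -1.12 under the other settings. The margin of Kcnj3 was -1.28 without the GSK-J5 array. A count was called moved when it changed by more than 1.5-fold, so a fall from 6 to 4 members was not called moved. A margin was called moved when it shifted by at least the standard deviation of its gene's controls. For the median difference the median of these standard deviations was used. Of the 102 recomputed values 10 moved and 0 changed direction. Counts cannot change sign, and the members were chosen for low values, so this is no sign of stability. No paired analysis was possible because each treatment has 1 array. With 1 array a treatment, array, culture and treatment cannot be told apart.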
